A study of Mus musculus with 8 samples.

Results

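The enzymes that make and rearrange disulfide bonds in the endoplasmic reticulum (ER) were followed as 10 genes: the protein disulfide isomerases P4hb, Pdia3, Pdia4, Pdia5, Pdia6 and Txndc5, the oxidases Ero1a and Ero1b, the peroxiredoxin Prdx4 and the sulfhydryl oxidase Qsox1. They were chosen by symbol from GENCODE and made up 10 of the 55414 gene IDs of the count table. All 10 passed the filter on low counts, which left 11988 genes to be tested. Paneth cells, the granule-filled secretory cells of the crypts of the small intestine, were sorted by fluorescence from C57BL/6J mice, and mRNA libraries were made from their total RNA. The control group (water) drank Milli-Q water and the zinc group drank water with 25 mM ZnSO4, in both cases for 7 days. Each group held 4 libraries of 1 mouse each, the genotype was the same throughout, and the mice's age and sex were not given in the sources used here. The cells came from the small intestine as a whole, so each library averages over its length, and the readout was mRNA and not protein or enzyme activity.

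Proteins that enter the secretory pathway receive their disulfide bonds in the ER. A protein disulfide isomerase passes its own disulfide to the new protein or reshuffles wrong bonds, and an Ero1 oxidase then reoxidises the isomerase and hands the electrons to oxygen, which gives hydrogen peroxide that Prdx4 can use to oxidise further isomerases. Paneth cells depend on this chemistry, since α-defensins and lysozyme, their main granule products, are held together by disulfide bonds.

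The reaction centre of an isomerase is a thioredoxin-type active site in which a glycine and a histidine stand between a pair of cysteines. The coding sequences of the GENCODE canonical transcripts (M39, GRCm39) were searched in frame for codons that spell this order (TGT or TGC, any GG codon, CAT or CAC, TGT or TGC). Matches are shown for the isomerases and for Qsox1, which also bears an oxidase domain. The 12 matching bases are in capitals within 30 bases of coding sequence, printed 5′ to 3′ on the strand of the gene, and codons are counted from the start codon.
P4hb, codon 55, chr11:120462531-120462542, minus strand: gccccgtggTGTGGCCACTGCaaagctctg
P4hb, codon 399, chr11:120453349-120453360, minus strand: gccccttggTGTGGTCACTGCaagcagcta
Pdia3, codon 57, chr2:121252931-121252942, plus strand: gccccctggTGTGGACATTGCaagaggctt
Pdia3, codon 406, chr2:121265348-121265359, plus strand: gccccttggTGTGGCCACTGTaagaatctg
Pdia4, codon 202, chr6:47780832-47780843, minus strand: gccccgtggTGTGGACACTGCaagaaactt
Pdia4, codon 551, chr6:47773686-47773697, minus strand: gcaccctggTGTGGGCACTGCaagcagcta
Pdia5, codon 303, chr16:35231354-35231365, minus strand: gccccatggTGTGGACATTGTaagaaaatg
Pdia6, codon 60, chr12:17323947-17323958, plus strand: gcaccatggTGTGGTCACTGCcagaggtta
Pdia6, codon 195, chr12:17328629-17328640, plus strand: gctccgtggTGTGGACACTGCaaaaacctg
Txndc5, codon 75, chr13:38707442-38707453, minus strand: gcgccctggTGTGGACACTGCcagcggctg
Txndc5, codon 203, chr13:38694175-38694186, minus strand: gctccgtggTGCGGTCACTGCaaagctctg
Txndc5, codon 335, chr13:38687524-38687535, minus strand: gctccgtggTGTGGCCACTGTaagaatctg
Qsox1, codon 73, chr1:155688318-155688329, minus strand: gcctcctggTGTGGCCACTGCatcgccttc

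The search found 14 sites in 7 of the 10 genes. Pdia4 and Txndc5 held 3 sites each, P4hb, Pdia3 and Pdia6 held 2 each, and Pdia5 and Qsox1 held 1 each. No match lay in the coding sequence of Ero1a, Ero1b or Prdx4. The match does not mark every isomerase, nor isomerases alone. In the wider isomerase family Pdia2 and Tmx3 held 1 each, but Agr2, Erp44 and Dnajc10, for example, held none, and the oxidase Qsox2 held 1. Over all canonical coding transcripts, 37 of 21627 (0.1711%) held at least 1 match. The tryptophan codon tgg came just before every site shown, and each lay within 1 exon.

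Between 20760764 and 24117111 counts were assigned to genes per library, and 11637 to 12411 genes had 10 counts or more. Levels are given below as CPM, the counts of a gene per fixed number of counts in its library after TMM scaling, which adjusts for differences in composition. The scaling factors ran from 0.764 to 1.23 and the share of counts from Defa genes from 27.9% to 39.9%. The 7 Paneth cell markers had mean levels from 6138 to 176141 CPM, with Lyz1, the lysozyme gene, at 156159.9 ± 35238 CPM in water and 161379 ± 46372 CPM in zinc (mean ± SD, n = 4). Plasma cells also hold much of the machinery described here, and 6 of 7 plasma cell markers were under 1 CPM on average (summed level of the list 3.78 to 7.88 CPM in water and 3.91 to 6.95 CPM in zinc, with Mzb1 at 0 in every library). All 4 immune and all 3 stromal markers were under 1 CPM. Of 8 enterocyte markers, 5 were under 1 CPM, and the list summed to 38.5 to 59.5 CPM in water and 53.5 to 80.9 CPM in zinc. Only 5 of the 8 were tested, and zinc minus water was above 0 for all 5, with log2 fold changes from 0.28 to 2.49 (median 0.42). Of these 0 passed the test (smallest edgeR adjusted p = 0.852). The 3 tuft cell markers summed to 9.94 to 90.8 CPM in water and 13.0 to 59.4 CPM in zinc, and the 5 enteroendocrine markers to 5.63 to 84.9 CPM and 8.91 to 42.0 CPM. The 4 stem cell markers summed to 4356 to 5728 CPM in water and 3047 to 4455 CPM in zinc. Their mean levels ran from 21.8 to 4069 CPM, so the most abundant one dominated this sum. Zinc minus water was above 0 for 1 of them and below 0 for 3, with a median log2 fold change of -0.13. As a check that zinc reached the cells, the metallothionein genes Mt1 (log2 fold change 3.65 ± 0.38 SE, edgeR adjusted p = 0.0259) and Mt2 (6.15 ± 0.51, edgeR adjusted p = 0.0198) were higher in all 4 zinc libraries than in all 4 water libraries. Without water 2, for example, the adjusted p of both was 0.0807 in edgeR, with log2 fold changes of 3.49 and 5.93. At this depth the lowest count of the 10 disulfide genes was 474 (Ero1a in zinc 1).

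The 10 genes differed in level far more than any of them differed between the groups. To compare genes with each other, CPM was divided by the length of their merged exons in kilobases. P4hb stood first with a mean of 686 CPM per kilobase (SD 96.7, n = 8), 5.66 times the level of Txndc5, the next gene, and 136 times that of Ero1a, the last. P4hb was the highest of the 10 in 8 of 8 libraries. Txndc5 (121 ± 22.3), Pdia3 (115 ± 16.3) and Qsox1 (96.3 ± 17.8 CPM per kilobase) followed close together. The order of Txndc5 and Pdia3 held in only 5 of 8 libraries, and that of Pdia3 and Qsox1 in 7 of 8, so these neighbours lay within the spread between libraries. Pdia6 came next at 56.9 ± 9.60 CPM per kilobase, below Qsox1 and above Pdia5 in every library.

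The lower part of the order held Pdia5 (17.9 ± 5.03), Pdia4 (14.96 ± 4.32), Prdx4 (8.15 ± 1.26), Ero1b (5.66 ± 1.31) and Ero1a (5.06 ± 1.01 CPM per kilobase). Pdia5 lay above Pdia4 in 6 of 8 libraries, Pdia4 above Prdx4 in 8, Prdx4 above Ero1b in 7 and Ero1b above Ero1a in 6. Both Ero1 oxidases and Prdx4 were thus below the 6 isomerases on this measure, while Qsox1, with its own oxidase domain, was among the more abundant genes. With the length of the canonical transcript in place of merged exons, a choice made after the data had been seen, P4hb remained first (868 CPM per kilobase), and Ero1b (9.96) and Ero1a (6.08) remained the last. Qsox1 then rose to rank 2 (252 CPM per kilobase), and Prdx4 (28.8) passed Pdia4 (19.5) to reach rank 7. Among all genes, by CPM without a correction for length, P4hb ranked 22 and Ero1a ranked 3339.

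**Figure D1:**
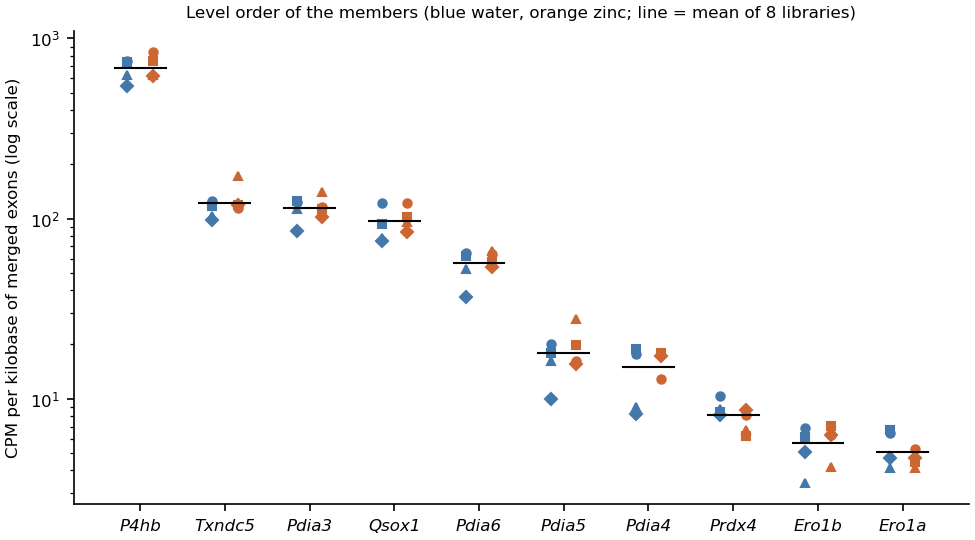
Level of each gene in every library, as CPM per kilobase of merged exons on a log scale (blue, water; orange, zinc; circle, square, diamond and triangle, replicates 1 to 4; line, mean of 8 libraries). P4hb (686) stands above all others in all 8 libraries, and Prdx4, Ero1b and Ero1a (8.15, 5.66 and 5.06) are lowest.

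The 10 genes together took 0.442%, 0.555%, 0.426% and 0.556% of all counts in water 1 to 4 and 0.462%, 0.546%, 0.496% and 0.660% in zinc 1 to 4. The groups overlapped, with the highest share in zinc 4 and the lowest in water 3. The means were 0.495% ± 0.0705 in water and 0.541% ± 0.0864 in zinc (SD, n = 4). P4hb alone made up 49.96% ± 1.42 of these counts in water and 48.7% ± 3.94 in zinc. Qsox1 gave 17.0% and 17.1%, Ero1b 0.813% and 0.841%, and Ero1a 0.587% and 0.459% of them in water and zinc.

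Zinc was compared with water in 1 edgeR quasi-likelihood fit over the 11988 genes. None of the 10 genes passed an adjusted p of 0.05 (Benjamini-Hochberg over all genes), against 0.0834% of all genes tested. None had an unadjusted p under 0.05 either, where 4.65% of all genes did, and for none did the 4 water and 4 zinc values fail to overlap, where 2.84% of all genes had groups apart. With the replicate number as a block, 0 of the 10 and 0.267% of all genes passed. Zinc minus water was above 0 for 8 genes and below 0 for Ero1a and Prdx4, with a median log2 fold change of 0.14 against 0.01 over all genes tested, of which 6227 lay above 0 and 5761 below. All 10 of the 95% intervals included 0, with bounds from -0.57 to 0.96. In the values per library below, which library is high or low is given on the TMM scale unless stated. The adjusted p was 0.998 for each gene in edgeR, and DESeq2 and limma-voom also called 0 of the 10. The median standard error of the 10 genes was 0.164 on the log2 scale, close to that of all genes (0.170).

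**Figure D2:**
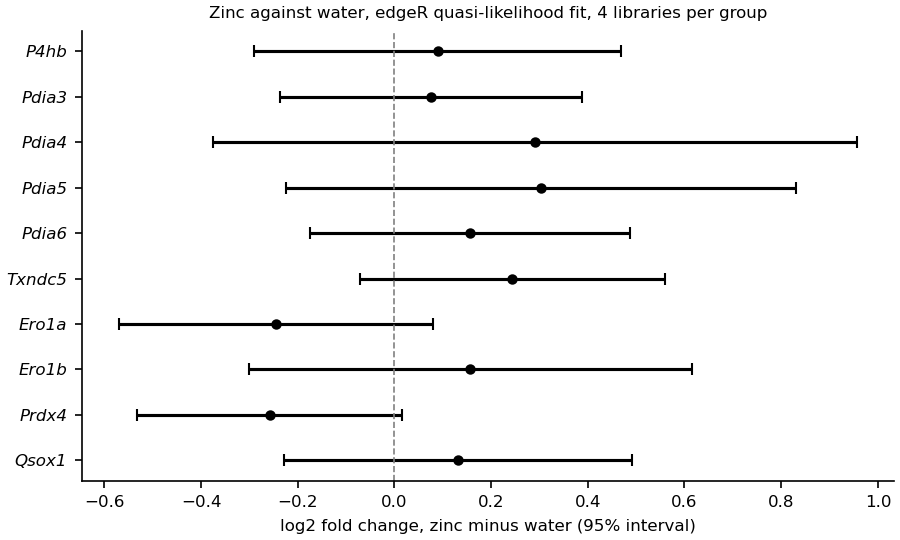
Log2 fold change of zinc minus water for each gene (point) with its 95% interval (bar) from the edgeR fit, 4 libraries per group. Every interval crosses 0, the widest is that of Pdia4 (-0.38 to 0.96), and the points of Ero1a and Prdx4 lie below 0.

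P4hb (ENSMUSG00000025130, GRCm39 chr11:120451122-120464538, minus strand) encodes the archetypal protein disulfide isomerase, which is also the β subunit of collagen prolyl 4-hydroxylase. It measured 2772, 2766, 2030.3 and 2323 CPM in water 1 to 4 and 3117, 2781, 2294 and 2331 CPM in zinc 1 to 4. On this scale replicates 1 and 2 were the higher ones in each group, but scaled by library totals replicates 2 and 4 were, and water 1 was then the lowest of all 8 (2115 CPM). The groups overlapped over most of their range under both scalings. The log2 fold change of zinc minus water was 0.09 ± 0.18 SE, with a 95% interval from -0.29 to 0.47, which is a fold of 0.818 to 1.38.

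Pdia3 (ENSMUSG00000027248, chr2:121244149-121270339, plus strand) encodes ERp57, the isomerase that acts on glycoproteins held by calnexin and calreticulin. Its levels were 584, 588, 400.3 and 529.5 CPM in water and 542, 534, 480.4 and 657 CPM in zinc. Water 3 was lowest and zinc 4 highest, and the groups overlapped. Zinc minus water was 0.07 ± 0.15 SE on the log2 scale (interval -0.24 to 0.39). Counts of genes on the opposite strand that share exon bases with Pdia3 were low beside its own mean of 11957 counts, with 7.63 for Catsper2 as the highest of 3.

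Pdia6 (ENSMUSG00000020571, chr12:17316533-17335913, plus strand) encodes P5, an isomerase that works together with the chaperone BiP. It stood at 415, 395, 235 and 336 CPM in water and at 406, 369, 343 and 421 CPM in zinc. The water libraries spread more widely than the zinc libraries (coefficient of variation 23.5% and 9.20%), mainly through the low value of water 3, and the zinc values lay within or just above the range of the water values. On the log2 scale zinc minus water was 0.16 ± 0.16 SE (interval -0.17 to 0.49).

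Pdia4 (ENSMUSG00000025823, chr6:47770077-47790462, minus strand) encodes ERp72, with 3 active sites. Its levels were 128, 135, 58.8 and 64.6 CPM in water and 92.1, 128, 123 and 128 CPM in zinc. Water 3 and water 4 were lowest of all 8, while water 1 and water 2 were as high as the zinc libraries. By library totals water 3 (62.7 CPM) and zinc 1 (71.3 CPM) were the lowest, followed by water 4 (78.3 CPM). Its coefficient of variation on the TMM scale was 41.9% in water, the highest of the 10 genes, and 14.8% in zinc. Its log2 fold change, 0.29 ± 0.29 SE, had the widest interval of the set (-0.38 to 0.96), which reached from a fold of 0.771 to 1.94.

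Water 3 and water 4 were the 2 lowest libraries for 11 of the 19 ER chaperones tested on the TMM scale and for 4 of them by library totals, against 4 and 0 of the 10 disulfide genes. How often this held over all genes was not counted, so it cannot be called particular to the chaperones. Hspa5, which encodes BiP, the main Hsp70 of the ER, measured 783, 871, 409 and 339 CPM in water and 624, 731, 915 and 767 CPM in zinc. Water 3 and water 4 were lowest of the 8 under both scalings (436 and 411 CPM by library totals), and the log2 fold change of 0.34 ± 0.29 SE did not pass the test. Hyou1, Dnajb9 and Manf, the other 3 chaperones for which this held under both scalings and named for it after their values had been seen, had 98.1 to 119, 58.3 to 70.01 and 72.9 to 74.4 CPM in water 3 and water 4, with no other library under 169, 142 and 134 CPM.

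Pdia5 (ENSMUSG00000022844, chr16:35217673-35311289, minus strand), a less studied isomerase, had levels of 80.2, 71.7, 39.6 and 64.9 CPM in water and of 64.8, 78.9, 62.0 and 110.2 CPM in zinc. Water 3 was lowest and zinc 4 highest, with the other 6 libraries between. Its log2 fold change was 0.30 ± 0.24 SE (interval -0.22 to 0.83), close to that of Pdia4. With 1 library left out it ran from 0.09 (without zinc 4) to 0.43 (without water 1). For Pdia4 the range was from 0.11 (without water 3) to 0.49 (without water 2).

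Txndc5 (ENSMUSG00000038991, chr13:38684055-38712800, minus strand) encodes ERp46, an isomerase with 3 thioredoxin domains that is abundant in secretory cells. It measured 573, 536, 449 and 471 CPM in water and 525, 547, 546 and 784 CPM in zinc. The first 3 zinc libraries lay within the range of the water group and zinc 4 stood apart above all others. With zinc 4 the log2 fold change was 0.24 ± 0.15 SE (interval -0.07 to 0.56), and without it 0.08.

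Zinc 4 also had the highest summed level of goblet cell markers. The 5 markers summed to 5867 CPM there, against 3153 to 4152 CPM in the 4 water libraries and 3433 to 3673 CPM in the other zinc libraries, with none of the 5 under 1 CPM on average. Their mean levels ran from 44.4 to 2175 CPM, so the sum leans on the most abundant. Zinc minus water was above 0 for 3 of them and below 0 for 2. The part of goblet transcripts in the Txndc5 value was not tested, and in such bulk samples more cells of a type cannot be told apart from more RNA per cell. Agr2, an isomerase-like protein of mucus-producing cells, was likewise highest in zinc 4, at 1636 CPM against 517 to 1116 CPM elsewhere.

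**Figure D3:**
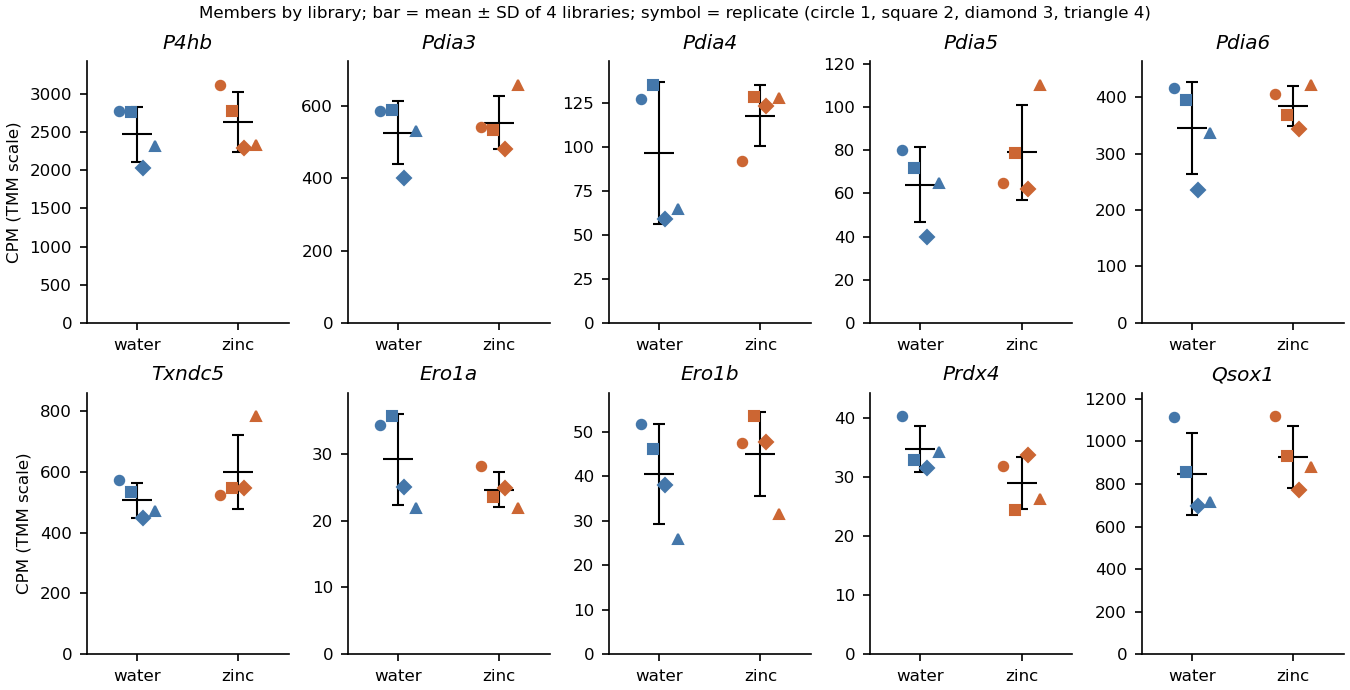
Level of each gene in CPM (TMM scale, axes from 0) in the 4 water (blue) and 4 zinc (orange) libraries, with mean ± SD; the symbol gives the replicate (circle 1, square 2, diamond 3, triangle 4). Water and zinc overlap in all 10 panels, water 3 (diamond) is the lowest water library in 8 of them, and zinc 4 (triangle) stands apart for Txndc5 at 784 CPM.

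The Ero1 oxidases are flavoproteins that reoxidise P4hb and its relatives. Ero1a (ENSMUSG00000021831, chr14:45520541-45556228, minus strand) is the widely expressed form and known to respond to low oxygen. It measured 34.4, 35.7, 25.0 and 21.8 CPM in water and 28.1, 23.6, 24.9 and 21.9 CPM in zinc. On this scale water 1 and water 2 were the highest of the 8 libraries, and water 3 and water 4 lay in or next to the range of the zinc group. By library totals water 2 alone stood out (36.3 CPM). Water 1, water 3 and water 4 (26.3, 26.6 and 26.5 CPM) then lay within the range of the zinc group (21.8 to 26.8 CPM). Zinc minus water was -0.25 ± 0.15 SE on the log2 scale (interval -0.57 to 0.08). With 1 library left out it ran from -0.37 (without water 4) to -0.14 (without water 2).

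Ero1b (ENSMUSG00000057069, chr13:12580716-12626285, plus strand) is the form of professional secretory cells such as those of the pancreas. Its levels were 51.7, 46.1, 38.1 and 25.8 CPM in water and 47.4, 53.4, 47.6 and 31.6 CPM in zinc. Replicate 4 was the lowest of each group on this scale, but by library totals zinc 1 (36.7 CPM) lay below zinc 4 (38.6 CPM). The groups overlapped. Its log2 fold change was 0.16 ± 0.21 SE (interval -0.30 to 0.62).

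The ratio of the Ero1 transcripts was taken within each library, where it does not depend on the scaling. The ratio of Ero1b to Ero1a counts was 1.504, 1.29, 1.52 and 1.18 in water 1 to 4 and 1.68, 2.26, 1.91 and 1.44 in zinc 1 to 4. Of the zinc libraries, 1 to 3 lay above all water libraries and zinc 4 lay inside the range of the water group. On the log2 scale the mean was 0.451 ± 0.178 in water and 0.848 ± 0.277 in zinc (SD, n = 4), a difference of 0.40 (exact two-sided permutation p = 0.0857, where 70 assignments give a smallest p of 0.0286). The difference did not pass 0.05. Without zinc 4, the sole zinc library inside the water range, it was 0.50 and the groups were apart, which gives the smallest p that 3 against 4 libraries allow (exact permutation p = 0.0286). Without any other library it lay between 0.29 and 0.45 and did not pass. Per kilobase of merged exons the ratio was 0.833 to 1.08 in water and 1.02 to 1.60 in zinc.

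**Figure D4:**
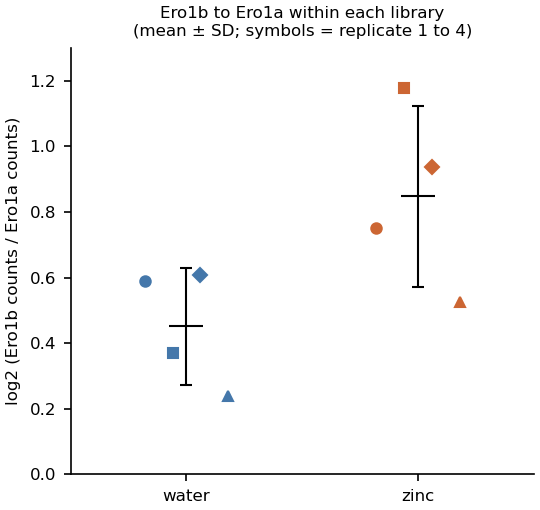
Log2 ratio of Ero1b to Ero1a counts in each library (circle, square, diamond and triangle, replicates 1 to 4), with mean ± SD of 4 libraries. The means are 0.451 in water (blue) and 0.848 in zinc (orange), and the lowest zinc library, replicate 4, lies within the water range.

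Prdx4 (ENSMUSG00000025289, chrX:154106813-154123750, minus strand) is the peroxiredoxin of the ER, which couples the removal of hydrogen peroxide to the oxidation of isomerases. It measured 40.3, 32.9, 31.6 and 34.3 CPM in water and 31.8, 24.4, 33.8 and 26.3 CPM in zinc. Zinc 2 and zinc 4 were the lowest libraries and water 1 the highest, with the other 5 close together. The log2 fold change of -0.26 ± 0.13 SE had the smallest unadjusted p of the 10 genes, above 0.05, and its interval (-0.53 to 0.02) reached just past 0. Of the 5 other peroxiredoxins 0 passed the test, 3 lay above 0 and 2 below, and the median was 0.07. Among them Prdx1, a cytosolic form, had a log2 fold change of 0.10 ± 0.12 SE, the mitochondrial Prdx3 of 0.12 ± 0.10 and the cytosolic Prdx2 of 0.07 ± 0.12. Acot9, on the opposite strand, shares 373 exon bases with Prdx4 and had a mean of 69.4 counts beside 704 for Prdx4. Without knowing whether strand was used in the counting (not given in the sources used here), reads of the shared bases cannot be told apart.

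Qsox1 (ENSMUSG00000033684, chr1:155651775-155688802, minus strand) joins an isomerase domain and a flavin-bearing oxidase domain in 1 protein and works mostly in the Golgi and outside the cell. Its levels were 1116, 855, 695 and 717 CPM in water and 1118, 933, 773 and 881 CPM in zinc. Replicate 1 was highest in each group on this scale, and replicate 4 by library totals (869.7 and 1079 CPM). The groups overlapped. On the log2 scale the difference was 0.13 ± 0.17 SE (interval -0.23 to 0.49).

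Which library of a group was high depended on the scaling. On the TMM scale, water 1 lay above the mean of its group for 10 of the 10 genes, water 2 for 9, water 4 for 2 and water 3 for 0. Scaled by library totals alone, the counts were 3 for water 1, 9 for water 2, 7 for water 4 and 1 for water 3, so that water 1 and water 4 changed places. In zinc the counts were 6, 5, 4 and 5 for zinc 1 to 4 on the TMM scale and 0, 5, 4 and 9 by library totals. Water 3 was the lowest of all 8 libraries for 7 genes on the TMM scale and for 4 by library totals, and zinc 4 the highest for 4 and 7. Water 2 above and water 3 below the group mean were the positions in the water group that held for 9 or more genes under both scalings. On the TMM scale the median log2 deviation of the 10 genes from the group mean was 0.28, 0.19, -0.26 and -0.09 in water 1 to 4. Over all genes tested this median lay between 0.0003 and 0.0099 in every library, and the counts above were not made for all genes. Without water 3 the median log2 fold change of the 10 genes was 0.02, and without water 1 it was 0.27.

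The genes whose levels followed P4hb most closely over the 8 libraries were Yif1a (Pearson r = 0.984 of log2 CPM), Reep5 (0.964), Rnf5 (0.959), Serp1 (0.951) and Chid1 (0.950), out of 6694 genes of at least 10 CPM that were on none of the lists. In all, 40 genes had an r above 0.9. Yif1a encodes a protein of ER to Golgi transport, Reep5 shapes ER tubules, Rnf5 is a ubiquitin ligase of the ER membrane and Serp1 a protein associated with the translocon. These correlations are a description over 8 libraries that share their scaling factors and group structure. They were taken on the TMM scale only, and not by library totals, under which the order of the libraries for P4hb changed. Of the 5 genes, Serp1 measured 944, 882, 545 and 582 CPM in water and 1023, 830.3, 707 and 627 CPM in zinc, and none of the 5 passed the test.

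Other members of the isomerase family behaved much as the 10 genes did. Of 16 listed genes 14 were tested, 0 passed, 10 lay above 0 and 4 below, with a median log2 fold change of 0.13. Pdilt and Erp27 were at 0 in every library, and a count of 0 leaves room for an expected count of up to about 3 (95% bound). Agr2 had 733 CPM per kilobase of merged exons, above P4hb (686) by less than its own spread (SD 256), and a log2 fold change of 0.17 ± 0.32 SE. Pdia2, a form best known from the pancreas, had 39.7 CPM per kilobase and measured 88.1, 88.0, 61.6 and 20.9 CPM in water and 90.5, 71.0, 86.4 and 39.6 CPM in zinc. On the TMM scale replicate 4 was lowest in both groups, as for Ero1b and Ero1a, and the log2 fold change of Pdia2 was 0.15 ± 0.50. Dnajc10, a reductase that helps to unfold proteins for degradation, had 26.5 CPM per kilobase and a log2 fold change of -0.06 ± 0.13.

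Of 8 other redox enzymes of the ER 7 were tested and 0 passed, with 5 above 0, 2 below and a median of 0.06. The selenoproteins Selenom, Selenos and Selenof were the most abundant (103, 61.8 and 55.1 CPM per kilobase) and had log2 fold changes of -0.01 ± 0.16, 0.05 ± 0.18 and 0.06 ± 0.15. Of 7 direct partners of the isomerases 6 were tested and 0 passed, with 4 above 0, 2 below and a median of 0.11. Calr (0.17 ± 0.18) and Canx (0.06 ± 0.11), which encode the lectin chaperones that recruit ERp57, had values near those of Pdia3.

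Tapbp encodes tapasin, which is bound to ERp57 through a disulfide when peptides are loaded onto MHC class I. It measured 62.5, 55.8, 56.9 and 62.1 CPM in water and 42.3, 42.7, 49.5 and 53.0 CPM in zinc. All 4 zinc libraries were below all 4 water libraries, which was the case in either direction for 2.84% of all genes tested. With a log2 fold change of -0.34 ± 0.11 SE it was among the 4.65% of genes with an unadjusted p under 0.05, and after adjustment over all genes it did not pass (edgeR adjusted p = 0.852).

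Of 19 ER chaperones 0 passed. Of the 19, 18 lay above 0 and 1 below, where 6227 of all genes tested lay above 0 and 5761 below. Their median log2 fold change was 0.15 against 0.01 over all genes. Hspa5 is given above, and with 1 library left out its log2 fold change ran from 0.14 (without water 4) to 0.57 (without water 2). Ppib, a prolyl isomerase, had 0.04 ± 0.13 and Sdf2l1, a component of the ER chaperone complex, 0.20 ± 0.31. On the TMM scale water 3 and water 4 were the lowest of the 8 libraries for Sdf2l1, at 32.2 and 44.0 CPM, against 63.3 CPM or more in the others, but not for Ppib.

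Of 17 regulators of the unfolded protein response, the programme that raises chaperones and isomerases when the ER is overloaded, 0 passed, 11 lay above 0 and 6 below, and the median was 0.02. Bhlha15, which encodes Mist1, a factor of the secretory programme, had 0.08 ± 0.23, Herpud1, of ER-associated degradation, -0.00 ± 0.15, and Atf4, the factor of the integrated stress response, -0.06 ± 0.15. Creb3l1, a membrane-bound transcription factor and the sole gene of this list with an unadjusted p under 0.05, was named after its value had been seen. It had 0.36 ± 0.16 (edgeR adjusted p = 0.998), and its highest level, 206 CPM, was again in zinc 4, against 103 to 136 CPM in the other libraries.

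Since Ero1a is known to respond to hypoxia, 9 hypoxia genes were also examined. Of these 7 were tested and 0 passed, with 6 above 0, 1 below and a median of 0.09. Ldha, of lactate formation, had a log2 fold change of 0.15 ± 0.12 SE, Ndrg1 of 0.06 ± 0.13 and Vegfa, the angiogenic factor, of -0.04 ± 0.14. Of the 81 genes of the 7 lists together, 75 were tested and 0 passed.

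**Figure D5:**
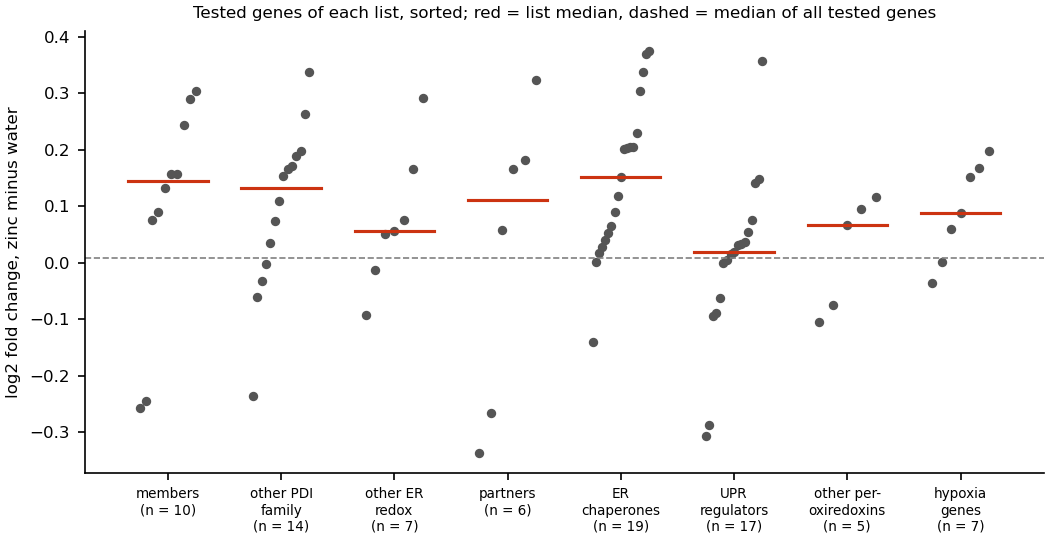
Log2 fold change of zinc minus water for the tested genes of each list (points, sorted within a list), with the list median (red) and the median of all 11988 genes (dashed, 0.01). List medians run from 0.02 (regulators of the unfolded protein response) to 0.15 (ER chaperones), the 10 disulfide genes have 0.14, and no gene shown passed the test.

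The promoters were then read for the motifs through which the unfolded protein response is known to act, from 250 bases before to 50 bases from the start of the canonical transcript (GENCODE M39, GRCm39). The ER stress response element (ERSE) is CCAAT, 9 further bases and CCACG, ERSE-II is ATTGG, 1 base and CCACG, and the unfolded protein response element (UPRE) is TGACGTGG, each searched on both strands. All 3 hold CCACG on 1 strand (CGTGG within the UPRE), so matches may overlap. ERSE was found in 2 of the 10 promoters, those of Ero1b and Pdia6, and in 27 of 21627 promoters of coding genes (0.1248%). ERSE-II (0.0694% of promoters) and UPRE (0.7213%) were found in none of the 10. Both matches are shown with that of Hspa5 for comparison, on the strand of the gene, with CCAAT and CCACG or their reverse complements in capitals.
Ero1b, 153 bases before the start, chr13:12580563-12580581, plus strand: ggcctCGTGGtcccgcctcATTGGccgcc
Pdia6, 41 bases before the start, chr12:17316492-17316510, plus strand: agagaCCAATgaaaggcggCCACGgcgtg
Hspa5, 67 bases before the start, chr2:34662037-34662055, plus strand: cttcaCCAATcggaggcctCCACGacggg

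The element of Ero1b lay in the opposite orientation to the gene, and those of Pdia6 and Hspa5 in the same orientation. Of the 19 ER chaperones, 7 held at least 1 of the 3 motifs, against 0.9017% of all promoters. Calr and Canx, the lectin partners of Pdia3, each held an ERSE, whereas Pdia4 held none in this window. No match says only that these letters are not in this window. Ero1b and Pdia6, the 2 genes with an ERSE, had log2 fold changes of 0.16 each, with standard errors of 0.21 and 0.16, within those of the other 8.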

How the data were processed

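Paneth cells of 4 water and 4 zinc mice were compared. The table that the authors deposited holds counts of reads, in whole numbers and not normalized, for each Ensembl gene ID and library. The submitters' processing notes name FastQC 0.12.0, STAR 2.7.0a, DESeq2 and the build mm39. The library kit was stranded. For the counting, the program, annotation, strand setting and handling of multi-mapped reads were not given in the sources used here. Symbols, lengths and positions were taken by ID from GENCODE M39 on GRCm39, in which 54749 of 55414 IDs were found.

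Zinc was compared with water in edgeR 4.0.16 (R 4.3.3) with its low-count filter (minimum count 10), TMM factors, robust quasi-likelihood fits and treatment as the only term. Benjamini-Hochberg adjustment covered all 11988 genes, with a threshold of 0.05. Standard errors (SE) are the size of the log2 fold change divided by the square root of F. The ratio of Ero1b to Ero1a used counts plus 0.5 and an exact two-sided permutation test. The fits were tested on simulated data. Figures and sequence searches used Python 3.11.15, and 1 of the sites found is not reported here.

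The genes and lists were chosen with earlier results of these data known. Named were all 10 genes, the 3 most abundant per kilobase of each list and any past the threshold, the 5 unlisted genes most correlated with P4hb at 10 CPM or more (log2 CPM, prior count 2), Mt1, Mt2 and Lyz1. Alternatives were RLE factors, library totals, DESeq2 1.42.0, limma-voom (limma 3.58.1), the replicate number as a block, no filter, a filter at a mean of 50 counts, Defa genes left out, no count added in the ratio and each library left out in turn. Libraries of a group differed by more than sampling noise (chi-square per degree of freedom 29.1 to 121), and each was counted as 1 replicate.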

Additional observations from a re-analysis of the deposited data

Results flagged for a closer look

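Dixon's test, which singles out about 1 in 20 groups of 4 by chance, was run on 88 groups of 4 libraries and singled out 6, of which 2 were among the 20 groups of the disulfide genes. Pdia4 in zinc 1 was 92.1 CPM, below 123 to 128 CPM in the other zinc libraries. Txndc5 in zinc 4 was 784 CPM, above 525 to 547 CPM in the others. Selenof was high in zinc 1 at 384 CPM, against 299 to 312 CPM. Ndrg1 was low in zinc 3 at 104 CPM, against 130.0 to 132 CPM. Mt1 and Mt2 were high in zinc 2, at 425 and 455 CPM, against 189 to 223 and 205 to 239.8 CPM in the other zinc libraries.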

How the results depend on the processing

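None of the 10 disulfide genes and none of the genes of the 7 lists passed the threshold under any of the 16 alternatives, and the median log2 fold change of the 10 genes stayed above 0 (0.02 without water 3 to 0.27 without water 1). Of the 10, 7 kept their direction throughout. The exceptions were P4hb (without zinc 1), Pdia3 (without water 3 or zinc 4) and Ero1b (without water 4). Over all genes, 3 were higher and 7 lower with zinc. The counts were 8 and 26 with DESeq2 and 11 and 55 without the low-count filter, and the cause was not tested. Leaving out 1 library gave 0 to 5 higher genes (1 without water 1, 0 without water 2, 5 without zinc 1) and 1 to 12 lower genes (1 without water 2 or zinc 2, 2 without water 3, 12 without zinc 4). The difference of the Ero1b to Ero1a log2 ratio ran from 0.29 without zinc 2 to 0.50 without zinc 4, where the p was the smallest that this design allows.

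Same-numbered libraries had correlations of deviation of 0.23, 5.51e-05, 0.13 and 0.26 for numbers 1 to 4, where a value over 0.1 for every number had been required to treat them as pairs. Numbers 1, 3 and 4 met it and correlated best with their own number, and water 2 was near 0 with every zinc library. TMM factors were also close by number (0.764 and 0.775, 1.02 and 0.998, 1.07 and 1.05, 1.21 and 1.23 in water and zinc 1 to 4), which hints at a pairing that the labels do not state. With the replicate number as a block 6 genes were higher and 26 lower, 0 of the 10 were called, and their median was 0.16. Their median SE was 0.107 in place of 0.164 (over all genes, 0.154 in place of 0.170). Of the 10, 1 (Prdx4) had an unadjusted p under 0.05, as did 937 of the 11988 genes tested. The Ero1 ratio difference was 0.40 with the block (exact sign-flip permutation p = 0.125, the smallest that 4 pairs allow).

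Of 624 values of named genes under alternatives, 575 kept direction and side of the threshold, 11 lost the call and 38 in 21 genes changed sign, with a size of at most 0.159 after the change. The 11 were all of Mt1 (with the block, and without any 1 of the 4 water libraries, zinc 1 or zinc 4, edgeR adjusted p from 0.0612 to 0.379) and Mt2 (with the block, and without water 1, water 2 or water 4, edgeR adjusted p from 0.0807 to 0.241), whose log2 fold changes stayed at 3.32 or more and 5.82 or more. Among the changes of sign, all but Herpud1 without the filter (0.0032) came from leaving out a library, over which the log2 fold changes of these genes ran as follows: Herpud1 -0.10 to 0.091, Dnajc10 -0.16 to 0.074, Selenom -0.11 to 0.14, Ndrg1 -0.045 to 0.14, Pdia3 -0.041 to 0.13, Agr2 -0.14 to 0.35, Selenos -0.078 to 0.20, Selenof -0.036 to 0.20, Canx -0.0052 to 0.11, Ppib -0.052 to 0.13, Sdf2l1 -0.012 to 0.40, Bhlha15 -0.11 to 0.29, Vegfa -0.12 to 0.044, Yif1a -0.025 to 0.18, Reep5 -0.075 to 0.22, Serp1 -0.036 to 0.25, Ero1b -0.012 to 0.29, Pdia2 -0.14 to 0.35, Lyz1 -0.16 to 0.21, P4hb -0.0047 to 0.15 and Atf4 -0.19 to 0.038.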
